A study of Mus musculus with 109 samples.

Results

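A set of 9 genes of the inflammasome and pyroptosis pathway was followed in retinas of mice that had received intravitreal injections of IL1A, TNF, both cytokines or the PBS vehicle. The members were chosen by name, with earlier results of these data known. Counts of members set beside shares of all genes therefore describe this set and do not test it. The members comprised the sensors Nlrp3, Aim2 and Nlrc4, the adaptor Pycard, the caspases Casp1 and Casp4, the pore-forming protein Gsdmd, the membrane-rupture protein Ninj1 and the cytokine Il18. They were 9 of the 37315 genes in the count table, and every member had a row. The series held 109 retinas of 64 mice in 12 groups, each retina sequenced as a bulk polyA RNA library.

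The wild-type animals were C57BL/6J mice given in the labels as 2-4 months old. In the first batch, retinas were taken on day 2 after PBS (31 retinas), TNF (8), IL1A (9) or IL1A+TNF (10), on day 14 after PBS (7, from 6 mice, as both eyes of mouse 59710 were PBS retinas) or TNF (6), and on day 35 after PBS (6) or TNF (9). In the second batch, day 2 retinas came from wild-type mice (5 PBS and 6 IL1A+TNF) and from Sarm1-/- mice (6 PBS and 6 IL1A+TNF), which lack Sarm1, an enzyme of the axon degeneration pathway, in every cell of the body. All retinas, controls included, had been injected, no uninjected retina was analysed here, and IL1A alone and IL1A+TNF were given at day 2 only. In 45 mice both eyes were sequenced, most often a cytokine-injected retina and its PBS-injected fellow. Every group held both sexes, in shares that ranged from 16 male and 15 female PBS retinas at day 2 to 2 male and 4 female TNF retinas at day 14.

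An inflammasome is a protein platform that forms when a sensor detects microbial products, cytosolic DNA or cell damage. The sensor recruits, usually through the adaptor ASC (the product of Pycard), the protease caspase-1, which cuts the precursors of IL-1β and IL-18 and also gasdermin D, and the freed end of gasdermin D opens pores in the plasma membrane. Caspase-11, encoded in mice by Casp4, cuts gasdermin D directly after it senses cytosolic lipopolysaccharide, and Ninj1 then drives the final rupture of the membrane. Much of this machinery is regulated by cutting and assembly of proteins, which RNA counts do not measure, and in the nervous system it is best known from microglia and from infiltrating myeloid cells.

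Promoter windows of 3 members are shown because these members stand at the ends of the responses that follow. Nlrp3 had the highest fold change after IL1A+TNF, and Casp4 had the deepest fall across the PBS retinas. Il18 did not pass the test after any cytokine. The sequences are the RefSeq windows of 250 bases before to 50 after a transcript start, in GRCm38.p6, written 5′ to 3′ on the strand of the gene, and capitals mark matches to the NF-kB consensus on either strand.
Nlrp3 (chr11:59541319-59541618, plus strand): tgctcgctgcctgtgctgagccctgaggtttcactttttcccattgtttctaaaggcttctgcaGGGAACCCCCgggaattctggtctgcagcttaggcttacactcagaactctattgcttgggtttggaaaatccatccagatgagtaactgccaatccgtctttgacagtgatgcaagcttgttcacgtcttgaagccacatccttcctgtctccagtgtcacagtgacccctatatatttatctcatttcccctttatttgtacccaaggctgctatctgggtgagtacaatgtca
Casp4 (chr9:5308599-5308898, plus strand): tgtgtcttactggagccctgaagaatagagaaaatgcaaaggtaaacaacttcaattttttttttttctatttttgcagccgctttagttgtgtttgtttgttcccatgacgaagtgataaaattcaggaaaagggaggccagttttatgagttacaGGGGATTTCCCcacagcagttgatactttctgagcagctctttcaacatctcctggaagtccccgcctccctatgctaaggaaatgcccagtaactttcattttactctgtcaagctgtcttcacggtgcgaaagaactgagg
Il18 (chr9:50554450-50554749, plus strand): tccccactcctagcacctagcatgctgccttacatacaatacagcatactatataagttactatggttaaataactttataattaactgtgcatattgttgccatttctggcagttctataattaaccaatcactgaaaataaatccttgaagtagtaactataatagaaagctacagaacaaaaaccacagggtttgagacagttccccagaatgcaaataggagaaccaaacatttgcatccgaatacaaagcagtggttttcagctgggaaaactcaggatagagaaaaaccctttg

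RefSeq windows were given for 8 of the 9 members (10 windows, with 2 each for Nlrp3 and Casp4), and Gsdmd is named only. The NF-kB consensus was found in 1 of the 2 Nlrp3 windows and in both overlapping Casp4 windows, where 2 matches shared all but a base of each other, and it occurred in 4.51% of all 32851 windows. The Nlrp3 window without a match is not shown. Aim2, Nlrc4, Pycard, Casp1 and Ninj1, which also rose after IL1A+TNF, had no match in their windows, and neither had Il18. A link between these letters and the responses was not tested. Neither the interferon-gamma type element TTCNNNGAA, present in 8.3% of all windows, nor the interferon-stimulated response element (ISRE), present in 3.44%, matched any member's window on either strand. These are descriptions of letters in short windows, and the Il18 window ended before the Il18 start that GENCODE gives at base 50554827.

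Library depth ran from 30014757 to 79064488 assigned reads (median 39374202), and the second batch, with at least 42875980, was sequenced more deeply than the first, with at most 45779899. Retinal identity was seen in every library, where the 6 rod markers summed to 21400 to 53100 CPM (a gene's count scaled to its library's total, to a common depth). Of these, 5 were lower after IL1A+TNF in the first batch, with sums of 21600 to 38100 CPM beside 33500 to 49100 after PBS at day 2, and 4 in the WT retinas of the second batch. Over all genes tested, 4981 of 19548 were lower in the first batch and 1483 of 19668 in the second. Lens markers varied from 0.133 to 5510 CPM summed, with none of the 4 tested called after IL1A+TNF, whereas 4 of 5 pigment epithelium markers were lower after IL1A+TNF, with a median sum of 20.5 CPM beside 59.3 after PBS. Sarm1 itself checked the genotype labels: it lay at 37.4 to 53.2 CPM in Sarm1-/- PBS retinas against 107 to 124 CPM in the wild-type PBS retinas of the same batch. A TNF retina of day 2 (replicate 60584) stood apart from its group, with 5 leukocyte markers summing to 21.6 CPM, below the 23.2 to 82.1 of the PBS retinas, and 7 monocyte markers summing to 3.66 CPM against 14.2 to 68.8. The PBS-injected fellow eye of that mouse held 67.5 CPM of the leukocyte and 35.8 CPM of the monocyte markers. The mouse was singled out after these values were seen. The main tests that involve the TNF retinas of day 2 are therefore also given without that mouse. The TNF effect between days was not refitted in that way.

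On the scale of CPM per kilobase of exon, which allows levels of different genes to be set side by side, Il18 and Ninj1 led in PBS retinas of day 2 with medians of 5.19 and 3.84. Gsdmd (0.819) and Aim2 (0.791) followed with overlapping ranges, then Pycard (0.465), Casp1 (0.342), Nlrp3 (0.163) and Casp4 (0.112), and Nlrc4 came last at 0.0357. After IL1A+TNF the order changed at the top, where Ninj1 reached 9.12 and Il18 stood at 5.29, while Nlrc4 remained last at 0.152. The per-length median of Nlrp3 after IL1A+TNF was 0.812 in the first batch, 1.28 in the wild-type retinas of the second and 1.12 in its Sarm1-/- retinas. Nlrp3, Casp1, Casp4 and Nlrc4 had small counts per library (at most 80 reads for Nlrp3, 55 for Casp1, 36 for Casp4 and 15 for Nlrc4 in any first-batch PBS retina of day 2).

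After IL1A+TNF, 8 of the 9 members were higher than in PBS retinas on day 2 and none was lower (limma, FDR below 0.05, against 25% of the 19548 genes tested called higher). The rise ran from Pycard at the low end to Nlrp3 at the high end, and its median over the 9 members was 1.35 on the log2 scale, beside -0.02 over all genes tested. For Nlrp3, Aim2, Nlrc4, Gsdmd and Ninj1, all 10 IL1A+TNF retinas lay above the highest of the 31 PBS retinas, and for Pycard, Casp1 and Casp4 it was 9 of 10. Of all 19548 genes tested, 2.59% separated in this way. The plot of CPM by injection shows these separations retina by retina.

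**Figure D1:**
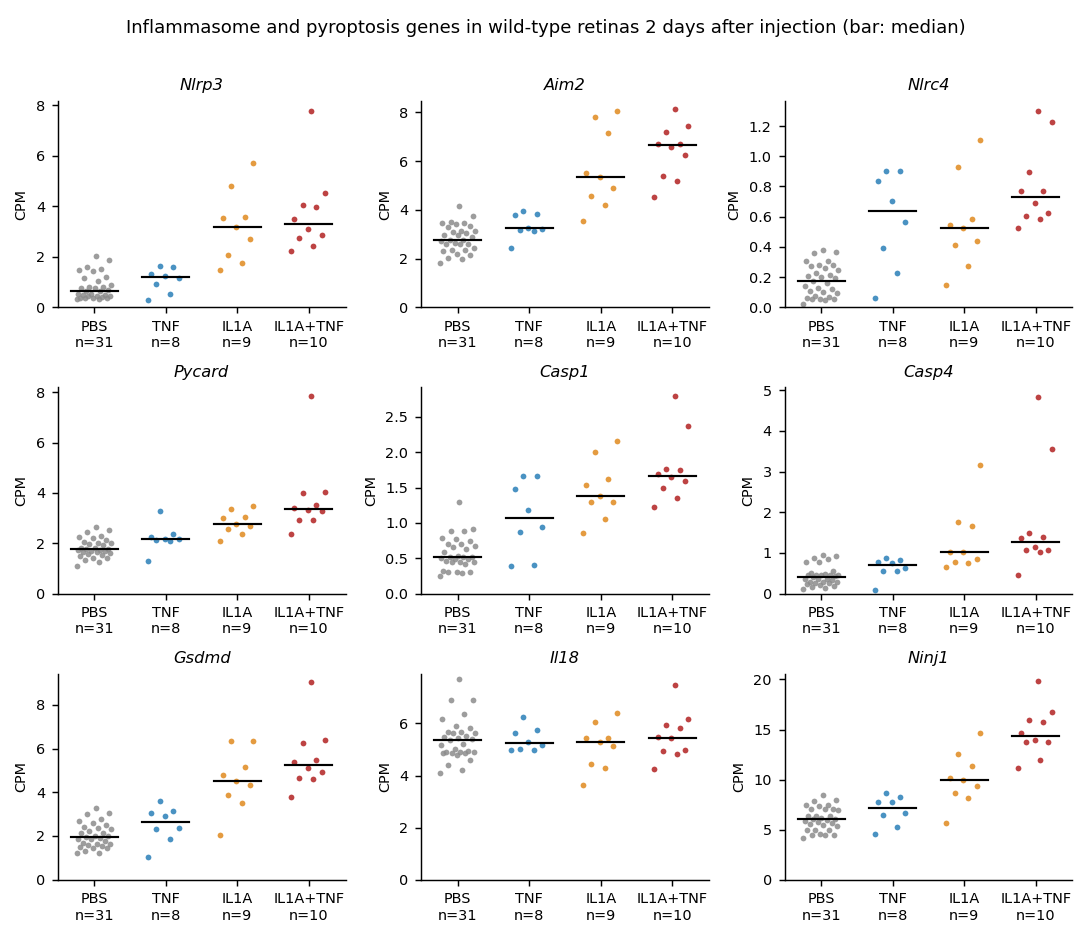
CPM (counts scaled to the library total) of the 9 members in single wild-type retinas 2 days after injection of PBS (n = 31), TNF (n = 8), IL1A (n = 9) or IL1A+TNF (n = 10), with a bar at each median. IL1A+TNF retinas sat above all PBS retinas for 5 members (2.59% of all genes tested did so), whereas the Il18 ranges of all groups overlapped.

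Among the sensors, Nlrp3, which responds to ion fluxes, membrane damage and ATP, ranged from 0.334 to 2.02 CPM in PBS retinas (median 0.661) and from 0.308 to 1.62 after TNF (median 1.19). It ranged from 1.48 to 5.73 CPM after IL1A (median 3.16) and from 2.22 to 7.78 after IL1A+TNF (median 3.30). The IL1A and IL1A+TNF ranges overlapped in part, and 7 of 9 IL1A retinas exceeded every PBS retina. The log2 fold change was 2.16 ± 0.19 (SE) after IL1A+TNF (adjusted p = 2.5e-14) and 2.07 ± 0.21 after IL1A (adjusted p = 8.78e-12), about 4.48-fold and 4.21-fold. After TNF alone it was 0.50 ± 0.29 (adjusted p = 0.743), and in mice with both eyes sequenced the TNF eye was the higher eye in 7 of 8.

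Aim2, the sensor of cytosolic double-stranded DNA, had a narrower spread and a smaller change. PBS retinas held 1.82 to 4.14 CPM (median 2.77) and TNF retinas 2.43 to 3.96 (median 3.24), whereas IL1A retinas held 3.55 to 8.06 (median 5.34) and IL1A+TNF retinas 4.54 to 8.14 (median 6.65). Only the TNF values lay wholly inside the PBS range. Its log2 fold change was 1.08 ± 0.08 after IL1A+TNF (adjusted p = 1.83e-16), 0.96 ± 0.09 after IL1A (adjusted p = 2.78e-12) and 0.26 ± 0.11 after TNF (adjusted p = 0.505).

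Nlrc4, which with the NAIP proteins forms the inflammasome for bacterial flagellin and secretion systems, was the member with the lowest adjusted p after TNF alone. It lay between 0.0233 and 0.381 CPM in PBS retinas (median 0.172), between 0.0615 and 0.905 after TNF (median 0.637), between 0.15 and 1.11 after IL1A (median 0.522) and between 0.523 and 1.30 after IL1A+TNF (median 0.730). The TNF and IL1A ranges overlapped in part, and 6 of 8 TNF retinas were above every PBS retina. Log2 fold changes were 1.54 ± 0.32 after TNF (adjusted p = 0.00971), 1.59 ± 0.30 after IL1A (adjusted p = 5.02e-05) and 2.13 ± 0.27 after IL1A+TNF (adjusted p = 7.84e-10). These changes rest on few reads, since no day 2 library of the first batch held more than 48 Nlrc4 counts.

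Pycard, the adaptor, changed least among the members that passed the test. Its CPM ranged from 1.10 to 2.66 in PBS retinas (median 1.77), from 1.31 to 3.27 after TNF (median 2.17), from 2.08 to 3.49 after IL1A (median 2.75) and from 2.36 to 7.86 after IL1A+TNF (median 3.37). The 7.86 came from replicate 60212, and the other IL1A+TNF retinas reached at most 4.03. Log2 fold changes were 0.91 ± 0.10 after IL1A+TNF (adjusted p = 8.13e-11), 0.59 ± 0.12 after IL1A (adjusted p = 0.000108) and 0.29 ± 0.13 after TNF (adjusted p = 0.604). Pycard shares exonic positions with Gm45205 on the opposite strand, and the strand setting used in counting is not given in the sources used here.

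Both caspases rose after either treatment that contained IL1A. Casp1, the protease of the canonical inflammasome, ranged from 0.248 to 1.30 CPM in PBS retinas (median 0.511), from 0.390 to 1.67 after TNF (median 1.06), from 0.850 to 2.16 after IL1A (median 1.38) and from 1.22 to 2.79 after IL1A+TNF (median 1.67). Of the TNF retinas 3 of 8 were above every PBS retina, and of the IL1A retinas 5 of 9. Casp1 counts were low, at most 55 in any of these PBS retinas and 68 in any TNF retina. Log2 fold changes were 0.82 ± 0.20 after TNF (adjusted p = 0.0344), 1.32 ± 0.17 after IL1A (adjusted p = 1.59e-08) and 1.53 ± 0.16 after IL1A+TNF (adjusted p = 2.65e-12).

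Casp4 lies next to Casp1 on chromosome 9, with bases 5308828 to 5336783 against 5298517 to 5307265 for Casp1, both on the plus strand. Its values ran from 0.0987 to 0.935 CPM in PBS retinas (median 0.414), from 0.0923 to 0.863 after TNF (median 0.691), from 0.650 to 3.15 after IL1A (median 1.02) and from 0.462 to 4.83 after IL1A+TNF (median 1.26). Its IL1A+TNF range reached down into the PBS range, with 9 of 10 retinas above every PBS retina. Log2 fold changes were 1.74 ± 0.26 after IL1A+TNF (adjusted p = 6.64e-08), 1.51 ± 0.28 after IL1A (adjusted p = 3.38e-05) and 0.56 ± 0.36 after TNF (adjusted p = 0.789). With mouse entered as a fixed factor, which uses only mice with both eyes, the IL1A value became 1.23 with an adjusted p of 0.0527.

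Among the executioners, Gsdmd, whose cut form makes the pore, ranged from 1.22 to 3.30 CPM in PBS retinas (median 1.95), from 1.02 to 3.62 after TNF (median 2.65), from 2.05 to 6.35 after IL1A (median 4.52) and from 3.79 to 9.03 after IL1A+TNF (median 5.26). Its log2 fold change was 1.35 ± 0.12 after IL1A+TNF (adjusted p = 4.74e-14), 1.11 ± 0.14 after IL1A (adjusted p = 2.53e-09) and 0.31 ± 0.17 after TNF (adjusted p = 0.705).

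Ninj1, the mediator of membrane rupture, ranged from 4.20 to 8.41 CPM in PBS retinas (median 6.03), from 4.52 to 8.63 after TNF (median 7.2), from 5.65 to 14.7 after IL1A (median 9.91) and from 11.2 to 19.8 after IL1A+TNF (median 14.3). The IL1A+TNF retinas all exceeded the PBS and TNF retinas and 4 of 10 exceeded every IL1A retina. Log2 fold changes were 1.2 ± 0.09 after IL1A+TNF (adjusted p = 1.74e-17), 0.67 ± 0.10 after IL1A (adjusted p = 3.89e-07) and 0.20 ± 0.12 after TNF (adjusted p = 0.762).

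Il18, the cytokine that caspase-1 activates, was the exception. It ranged from 4.09 to 7.71 CPM in PBS retinas (median 5.35), from 4.97 to 6.25 after TNF (median 5.24), from 3.65 to 6.40 after IL1A (median 5.30) and from 4.26 to 7.48 after IL1A+TNF (median 5.46). The ranges of all 4 groups overlapped, and no TNF or IL1A retina and no IL1A+TNF retina lay above the PBS range. The log2 fold change was -0.05 after IL1A+TNF (95% confidence interval -0.18 to 0.09, adjusted p = 0.566), -0.11 after IL1A (-0.26 to 0.03, adjusted p = 0.303) and 0.01 after TNF (-0.14 to 0.16, adjusted p = 0.987). Among mice with both eyes, the IL1A+TNF eye had the higher Il18 in 5 of 8, compared with 8 of 8 for Nlrp3, Aim2, Nlrc4, Pycard, Casp1, Gsdmd and Ninj1 and 7 of 8 for Casp4.

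**Figure D2:**
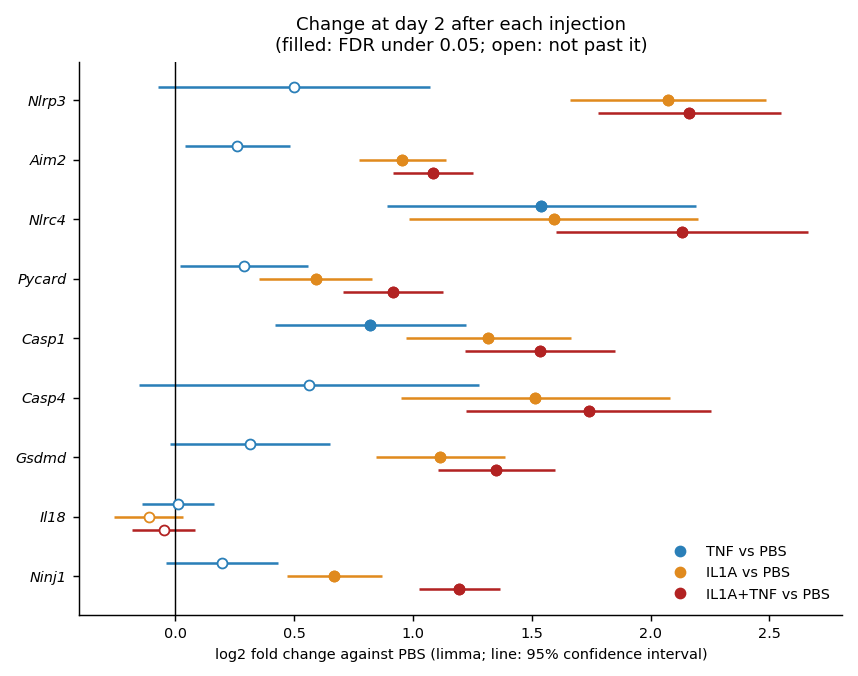
Log2 fold change against PBS on day 2 for each member after TNF (blue), IL1A (orange) and IL1A+TNF (red), with 95% confidence intervals from limma. Filled points passed an FDR of 0.05, which 8 members did after IL1A and IL1A+TNF and 2, Nlrc4 and Casp1, after TNF.

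IL1A alone raised the same 8 members as IL1A+TNF, against 12% of genes called higher, and their median over all 9 was 1.11 beside -0.01 over all genes. No member's IL1A retinas were all above the PBS retinas, which 0.118% of genes tested showed, although 8 of 9 were for Aim2 and Gsdmd. TNF alone raised 2 members, Nlrc4 and Casp1, against 0.471% of genes called higher. The TNF calls depended on single mice: neither member passed without replicate 59833, 60033, 60213 or 60585, and only Nlrc4 passed without any of 7 others. Without replicate 60584, the TNF retina that stood apart, the values rose to 1.96 for Nlrc4 (adjusted p = 1.49e-06) and 1.05 for Casp1 (adjusted p = 9.21e-05), against 2.1% of genes then called higher (413 genes beside 92 with that mouse). No further member passed without it, although Nlrp3 moved from 0.50 to 0.76 (adjusted p = 0.2), Casp4 from 0.56 to 0.90 (adjusted p = 0.223) and Gsdmd from 0.31 to 0.50 (adjusted p = 0.0932). With mouse as a fixed factor the TNF changes were 1.33 for Nlrc4 (adjusted p = 0.21) and 0.98 for Casp1 (adjusted p = 0.26).

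Adding TNF to IL1A raised 1 member further, Ninj1, by 0.53 ± 0.11 on the log2 scale (adjusted p = 0.000709), against 5.56% of genes called higher. Nlrc4 differed by as much, 0.54 ± 0.30, with a wider interval (-0.07 to 1.15, adjusted p = 0.274). The interval of the difference between IL1A+TNF and IL1A was -0.31 to 0.49 for Nlrp3, -0.07 to 0.33 for Aim2, -0.14 to 0.58 for Casp1, -0.35 to 0.81 for Casp4, -0.06 to 0.53 for Gsdmd and -0.11 to 0.24 for Il18. Pycard differed by 0.32 (adjusted p = 0.105) and passed only without replicate 60780 (0.38, adjusted p = 0.0343), and the Ninj1 call was lost with mouse as a fixed factor (0.51, adjusted p = 0.3).

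Set against TNF alone, IL1A+TNF was higher for 7 members, all but Nlrc4 and Il18, against 20% of genes called higher, and 3 of the 7 passed with mouse as a fixed factor. Nlrc4 differed by 0.59 ± 0.33 (adjusted p = 0.148). Without replicate 60584 again 7 members passed, against 19.1% of genes, and the Nlrc4 difference was 0.19 (adjusted p = 0.638). The direct comparison of IL1A with TNF, added after the data were seen, called 4 members higher after IL1A, against 5.35% of genes: Nlrp3 (1.57, adjusted p = 0.000339), Aim2 (0.69, adjusted p = 0.000205), Gsdmd (0.80, adjusted p = 0.00356) and Ninj1 (0.47, adjusted p = 0.0184). Nlrc4 differed by 0.05 ± 0.36 and Casp1 by 0.50 ± 0.22 (adjusted p = 0.953 and 0.153). Ninj1 was no longer called without replicate 59897, 60216, 60584 or 60637 (0.40 to 0.44, adjusted p = 0.0511 to 0.077), and none of the 4 passed with mouse as a fixed factor. Without 60584 the other 3 passed, against 3.15% of genes, and Nlrc4 differed by -0.33 (adjusted p = 0.619).

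The IL1A by TNF interaction asks whether the combined effect departs from the sum of the single effects on the log2 scale. It called 0 of 9 members (limma, edgeR and DESeq2 alike, 3 at an unadjusted p below 0.05), against 3.52% of genes called in either direction. Of all 19548 genes tested, 3427 were at an unadjusted limma p below 0.05. The largest departures were negative, -1.0 ± 0.44 for Nlrc4 (adjusted p = 0.214) and -0.60 ± 0.27 for Casp1 (adjusted p = 0.218). These are the members that TNF alone raised. The TNF effect enters the interaction with a negative sign, so that part of this overlap is built in. Without replicate 60584 both passed, at -1.43 (adjusted p = 0.0244) and -0.83 (adjusted p = 0.0435), against 3.56% of genes, so that these calls turned on whether that mouse was included.

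Transcripts of leukocytes rose in the same retinas, where 25% of all genes tested were called higher after IL1A+TNF. Of 5 general leukocyte markers, 5 were higher after IL1A+TNF, and their summed level ran from 132 to 372 CPM, above the 23.2 to 82.1 CPM of PBS retinas. It ran from 64.0 to 236 CPM after IL1A and from 21.6 to 109 after TNF. Neutrophil markers (6 of 8 higher after IL1A+TNF, 7 tested) summed to 2.74 to 130 CPM after PBS, 2.98 to 48.1 after TNF, 63.3 to 384 after IL1A and 121 to 798 after IL1A+TNF, although Ly6g, a defining neutrophil marker, was at 0 in 25 of 31 PBS and 6 of 10 IL1A+TNF retinas. Monocyte markers (5 of 7 higher after IL1A+TNF) summed to 14.2 to 68.8 CPM after PBS and 56.9 to 139 after IL1A+TNF.

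Microglial markers moved in both directions, with 4 of 8 higher and 3 lower after IL1A+TNF, and summed to 67.4 to 114 CPM after PBS and 120 to 181 after IL1A+TNF. Over all 19548 genes tested, 4885 were higher and 4981 lower. None of the 7 markers of T and NK cells reached the count filter, and these summed to at most 1.47 CPM in any day 2 retina of the first batch. The part of these cell types in the members' changes was not tested, and in a bulk retina more cells of a type cannot be told apart from more RNA per cell.

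**Figure D3:**
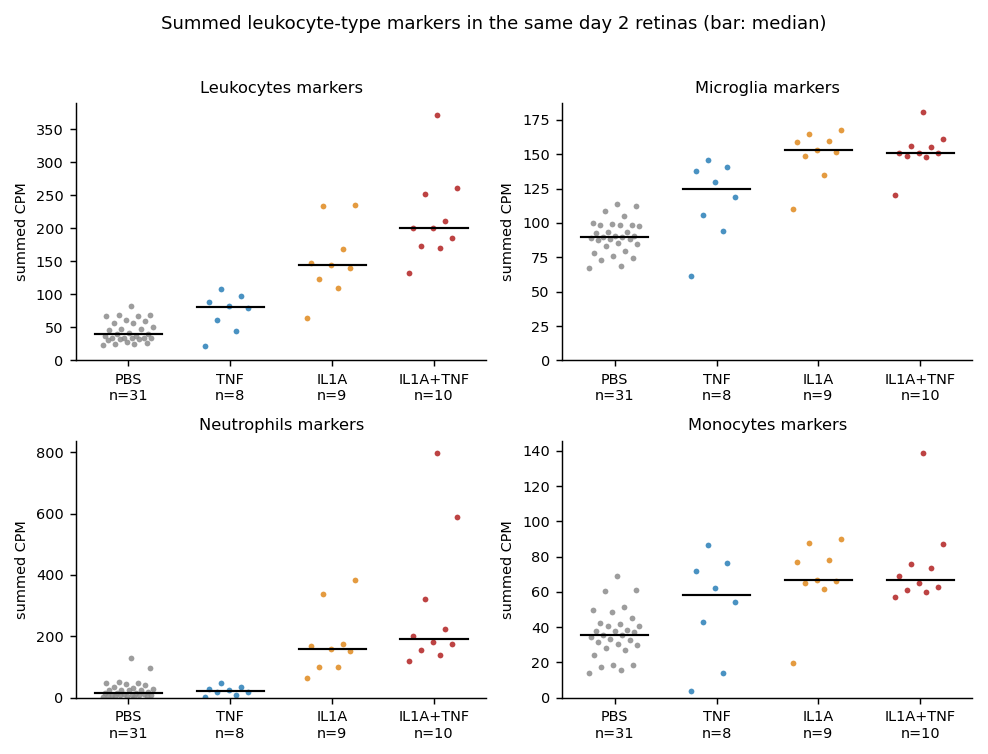
Summed CPM of markers of leukocytes (5 genes), microglia (8), neutrophils (8) and monocytes (7) in the day 2 wild-type retinas of the first batch, by injection, with a bar at each median. The leukocyte sum of IL1A+TNF retinas (132 to 372 CPM) lay above that of all PBS retinas (23.2 to 82.1 CPM).

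Other genes of the pathway, from lists chosen by role, were tested in the same fit. Of all 19548 genes tested there, 4885 were higher and 4981 lower after IL1A+TNF. The numbers were 2341 and 1845 after IL1A, and 92 and 4 after TNF. Of 13 other sensors, 11 were tested, and after IL1A+TNF 10 were higher and 1, Nlrp10, was lower, with a median log2 change of 2.02. Mefv (pyrin) changed by 3.25, Nlrp12 by 3.17 and Nlrp1b by 2.49 (adjusted p = 8.79e-10, 6.73e-13 and 2.32e-17). After IL1A 8 of the 11 were higher and none lower, led by Nlrp12 (3.01), Mefv (2.92) and Nlrp1b (2.13). After TNF the 4 that rose were Nlrp1b (1.19, adjusted p = 0.00685) and 3 NAIP genes, the partners of Nlrc4: Naip2 by 1.01, Naip5 by 0.97 and Naip6 by 1.27 (adjusted p = 0.00971, 0.00585 and 0.00971). Without replicate 60584 these 4 remained called, with Naip6 at 1.7, Nlrp1b at 1.34, Naip2 at 1.27 and Naip5 at 1.23, and Mefv (1.94, adjusted p = 0.00679) and Nlrp1a (1.45, adjusted p = 0.00839) were called beside them. In the wild-type retinas of the second batch Nlrp10, Zbp1 and Dhx33 did not pass (adjusted p = 0.575, 0.0783 and 0.134), and the other sensors tested were again higher. The Naip and Nlrp1 genes are near-identical copies among themselves, and reads may have been shared or lost between them.

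Of 15 genes found that prime or license inflammasomes, 13 were higher and 1 was lower after IL1A+TNF, 6 were higher and 1 lower after IL1A, and none passed after TNF, although P2rx7 (0.86, adjusted p = 0.00148) and Sting1 (0.63, adjusted p = 0.0317) did without replicate 60584. After IL1A+TNF the greatest changes were in the interferon-induced GTPases Gm12250 (4.00) and Gbp7 (2.29) and in Txnip (2.11), an NLRP3-binding regulator of redox state. Txnip (1.87), P2rx7 (1.27), the ATP-gated channel upstream of NLRP3, and Cgas (1.2) led after IL1A. Gm12250 and Gbp7 did not pass after IL1A alone (1.56, adjusted p = 0.1, and 0.67, adjusted p = 0.0607). Of the genes higher after IL1A+TNF, Panx1, Gbp2, Gbp3, Irf2 and Fadd did not pass in the wild-type retinas of the second batch (adjusted p = 0.0558 to 0.446).

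Ligands and receptors of the IL-1 and IL-18 families rose in 9 of 10 cases after IL1A+TNF and in 5 of 10 after IL1A, and none passed after TNF, or 1, Il18r1 (1.47, adjusted p = 0.0379), without replicate 60584. In the wild-type retinas of the second batch Il1b, Il1r2, Il18r1 and Il18rap passed after IL1A+TNF. Il1a, Il1rn, Il1r1, Il1rap and Il33 did not pass there (adjusted p = 0.108 to 0.398). Il1r2, the decoy receptor, changed by 3.17 after IL1A+TNF and 2.67 after IL1A, and Il1b by 2.82 and 2.73. Il1b lay at 0.365 to 14.6 CPM in PBS retinas (median 1.64) and at 6.22 to 27.7 after IL1A+TNF (median 13.7). The signalling chain of the IL-18 receptor, Il18rap, changed by 2.74 and 2.57, while Il18 itself did not pass, and the soluble inhibitor Il18bp differed by 0.08 (adjusted p = 0.396) and 0.00 (adjusted p = 0.988).

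A list of 10 further genes held the other gasdermins and Ninj2, and 4 of them reached the filter. Gsdma was higher after IL1A+TNF (1.24, adjusted p = 9.3e-06) and again in the wild-type retinas of the second batch (1.54, adjusted p = 0.0213), whereas Ninj2 (-0.76, adjusted p = 0.000501) and Gsdme (-0.12, adjusted p = 0.0208) were lower in the first batch and Pjvk did not pass. Ninj2 was also lower after IL1A (-0.64, adjusted p = 0.0117). In the wild-type retinas of the second batch Ninj2 and Gsdme did not pass after IL1A+TNF (adjusted p = 0.284 and 0.253). Gsdme was abundant, at 26.8 to 41.1 CPM in PBS and 27.1 to 36.2 CPM in IL1A+TNF retinas. Of 8 inhibitors found, 3 were higher after IL1A+TNF (Trim30a by 1.35, Casp12 by 0.72 and Atg16l1 by 0.34) and 2 were lower (Tnfaip3, encoding A20, by -1.2, and Nlrx1 by -0.30). Over all 19548 genes tested, 4885 were higher and 4981 lower. Casp12 and Nlrx1 did not pass in the wild-type retinas of the second batch (adjusted p = 0.361 and 0.121). After IL1A, Trim30a (0.99) and Casp12 (0.69) were higher and Tnfaip3 (-0.54) was lower, and none passed after TNF.

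Over the 12 group means of log2 CPM, 8 members followed a shared pattern, with Pearson's r between 0.925 and 0.991 for each pair, and Il18 stood apart at 0.453 to 0.615. The genes most like Nlrp3 were Pilra, Cd300ld and Il6ra (r = 0.998 each), those most like Casp1 were Cd84, Unc93b1 and Mpeg1 (0.996 to 0.997), and those most like Gsdmd were Itga2, Clec7a and Unc93b1 (0.996 to 0.997). Aim2 was closest to Il16, Dennd1c and Sipa1 (0.994), Nlrc4 to Acp5, Atp8b4 and Tlr8 (0.987 to 0.99) and Pycard to Evi2a, Tmem268 and Ctnnd1 (0.993 to 0.995). Casp4 followed Srgn, Glipr2 and ENSMUSG00000089672 (0.995 to 0.996), and Ninj1 followed Bin3, Cib1 and Rbm3 (0.996 to 0.998). Il18 was closest to Slc5a5, Insrr and Dapl1 (0.959 to 0.976). The 12 points share PBS groups, batches and total depth, and these values are descriptions without a test.

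The members fell with time in the PBS retinas themselves. Across days 2, 14 and 35, all 9 differed (limma F-test, FDR below 0.05, against 36% of genes called), and Il18 was the member nearest the threshold (adjusted p = 0.0389). Between day 2 and day 14, 6 were lower (Nlrp3, Pycard, Casp1, Casp4, Gsdmd and Ninj1), against 10.2% of genes called lower, or 5, without Pycard (adjusted p = 0.0749 and 0.0806), when either eye of mouse 59710 was left out. Between day 2 and day 35 all 9 were lower, against 17.3%. Nlrp3, Nlrc4 and Casp4 fell under the count filter in the separate fits of days 14 and 35, and Casp1 in that of day 35. They passed it here through the day 2 retinas, where they were higher. Their calls as lower are thus in part set by the filter. Between day 14 and day 35 limma called 0 of 9, with 6 at an unadjusted p below 0.05, against 3.97% of genes called in either direction. Of all 19372 genes tested, 3691 were at an unadjusted limma p below 0.05 there. Retinas of day 14 and day 35 came from other mice than those of day 2, so that animals and day cannot be told apart.

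Casp4 fell furthest. Its PBS retinas held 0.0987 to 0.935 CPM on day 2 (median 0.414), 0.0499 to 0.202 on day 14 (median 0.0956) and 0 to 0.133 on day 35 (median 0.0262), where 2 of 6 libraries had no Casp4 read. Its log2 change was -1.65 ± 0.44 at day 14 (adjusted p = 0.00654) and -3.48 ± 0.58 at day 35 (adjusted p = 9.87e-06), the last on at most 5 reads a library. Nlrp3 was at 0.334 to 2.02 CPM on day 2, 0.0319 to 0.358 on day 14 and 0.0799 to 0.236 on day 35. It changed by -2.06 ± 0.48 and -2.15 ± 0.51 (adjusted p = 0.00156 and 0.000934).

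Gsdmd passed from 1.22 to 3.30 CPM on day 2 through 0.847 to 1.5 on day 14 to 0.336 to 1.10 on day 35, changing by -0.89 ± 0.19 and -1.54 ± 0.24 (adjusted p = 0.000781 and 2.51e-06). Casp1 changed by -0.94 ± 0.28 at day 14 and -2.11 ± 0.37 at day 35, Nlrc4 by -1.07 ± 0.50 (adjusted p = 0.134) and -1.85 ± 0.57, and Pycard by -0.37 ± 0.13 and -0.92 ± 0.15. No PBS library of day 35 held more than 10 reads of Casp1 or 4 of Nlrc4. The smallest shifts at day 35 were those of Il18 (-0.27 ± 0.09, adjusted p = 0.0146), Aim2 (-0.50 ± 0.13) and Ninj1 (-0.60 ± 0.13). The leukocyte markers moved in the same way, 5 of 5 lower at each later day, with sums of 13.6 to 15.9 CPM at day 14 and 10.9 to 12.4 at day 35. So did the microglial markers, 7 of 8 lower at day 14 and 8 of 8 at day 35, with sums of 48.0 to 57.6 and 35.3 to 43.9 CPM, and their part was not tested. Of all genes tested, 10.2% were called lower at day 14 and 17.3% at day 35.

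**Figure D4:**
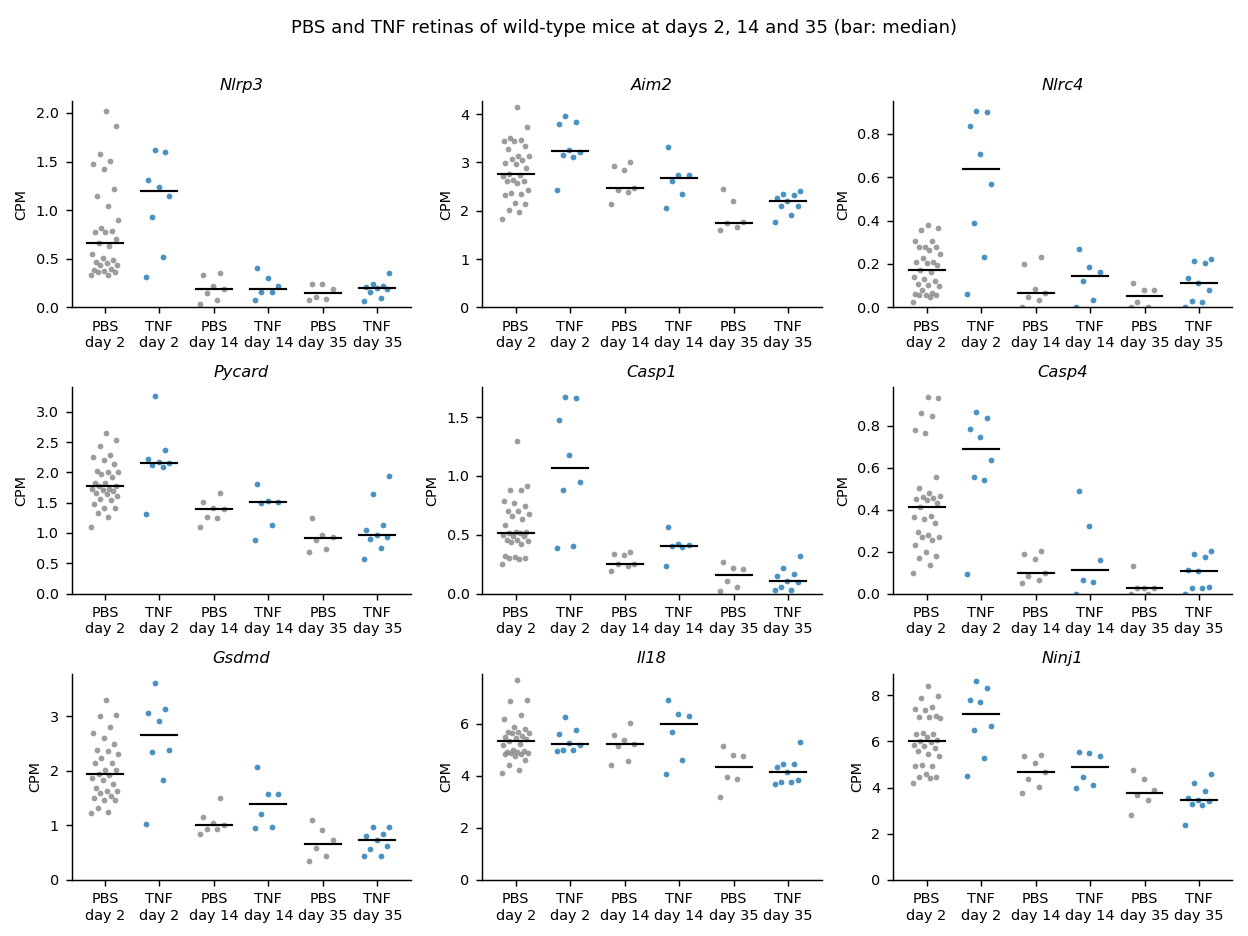
CPM (counts scaled to the library total) of the 9 members in PBS (grey) and TNF (blue) retinas of wild-type mice at days 2, 14 and 35, with a bar at each median. Medians of PBS retinas were lower at day 35 than at day 2 for all members, and TNF retinas of days 14 and 35 overlapped the PBS retinas of the same day.

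No difference between TNF and PBS was detected at the later days. At day 14, 6 members were tested and limma called none, with 0 at an unadjusted p below 0.05 and 0 by edgeR and DESeq2, and 0% of the 18023 genes tested were called. The nearest were Casp1 (0.51, 95% confidence interval -0.03 to 1.04) and Gsdmd (0.39, -0.02 to 0.81), with 5 of 6 and 3 of 6 TNF retinas above every PBS retina and an adjusted p of 0.903 for each. At day 35, 5 members were tested with none called by limma, edgeR or DESeq2, none at an unadjusted p below 0.05, and 0% of 17821 genes called. Nlrp3, Nlrc4 and Casp4, and at day 35 also Casp1, fell under the count filter, with medians of 0.0262 to 0.204 CPM in both groups of each day.

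Interval widths at these days limit what could be seen. For Aim2 the TNF difference was -0.26 to 0.24 at day 14 and -0.06 to 0.43 at day 35, while for Gsdmd at day 35 it was -0.41 to 0.61. The TNF effect at day 14 or at day 35 was not shown to differ from that at day 2 for any member (0 of 9 each by limma, edgeR and DESeq2, 0 at an unadjusted p below 0.05, and 0% of genes called in either comparison). Members under the filter at the later days were tested in this fit together with the day 2 retinas, where they were higher. For these members the comparison rests on few reads at the later days and could show little. Nlrc4, for example, differed by -1.24 ± 0.82 and -0.44 ± 0.86. The comparisons between days were not refitted without replicate 60584.

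The second batch repeated the IL1A+TNF comparison in other wild-type mice. The same 8 members were higher, against 13.1% of genes called higher, and for each of them all 6 IL1A+TNF retinas lay above all 5 PBS retinas, as for 15.7% of all genes tested. The Nlrp3 values of the PBS retinas were 0.42, 0.515, 0.824, 0.831 and 0.904 CPM, and the IL1A+TNF retinas ran from 4.28 to 10.7 (median 5.18), a log2 change of 2.97 ± 0.51 (adjusted p = 0.000388). Ninj1 went from 5.82, 5.85, 6.09, 6.43 and 7.81 CPM to 14.1 to 27.1 (median 19.9), a change of 1.46 ± 0.33 (adjusted p = 0.00326).

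Gsdmd changed by 1.75 ± 0.25 in that batch (adjusted p = 5.6e-05), Nlrc4 by 2.73 ± 0.42, Casp1 by 1.71 ± 0.30, Aim2 by 1.52 ± 0.21 and Pycard by 1.15 ± 0.27. Casp4 was the weakest (1.54 ± 0.52, adjusted p = 0.0405) and no longer passed when any wild-type mouse of the batch was left out (1.32 to 1.83, adjusted p = 0.055 to 0.132). Il18 differed by 0.03 (95% confidence interval -0.28 to 0.33). The effect was not shown to differ between the batches for any member (limma, edgeR and DESeq2 called 0 of 9, 1 at an unadjusted p below 0.05, Aim2, and 0% of genes were called). Of all 20182 genes tested, 1321 were at an unadjusted limma p below 0.05.

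In Sarm1-/- retinas IL1A+TNF again raised 8 members and not Il18, against 21.6% of genes called higher. Nlrp3 went from 0.418 to 2.55 CPM (median 0.534) to 1.79 to 8.55 (median 4.53), Gsdmd from 1.34 to 3.23 (median 1.91) to 2.47 to 5.99 (median 4.60), and Ninj1 from 5.26 to 8.74 (median 6.73) to 8.35 to 37.6 (median 16.5). These groups overlapped, and only for Nlrc4 and Pycard were all 6 cytokine retinas above all 6 controls, as for 4.66% of all genes tested. Log2 changes were 2.37 ± 0.36 for Nlrp3 (adjusted p = 5.04e-07), 1.02 ± 0.21 for Gsdmd (adjusted p = 6.84e-05), 1.35 ± 0.20 for Ninj1 (adjusted p = 2.14e-07) and -0.23 ± 0.11 for Il18 (adjusted p = 0.084). Without replicate 61564, Il18 passed as lower (-0.33, adjusted p = 0.0164).

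**Figure D5:**
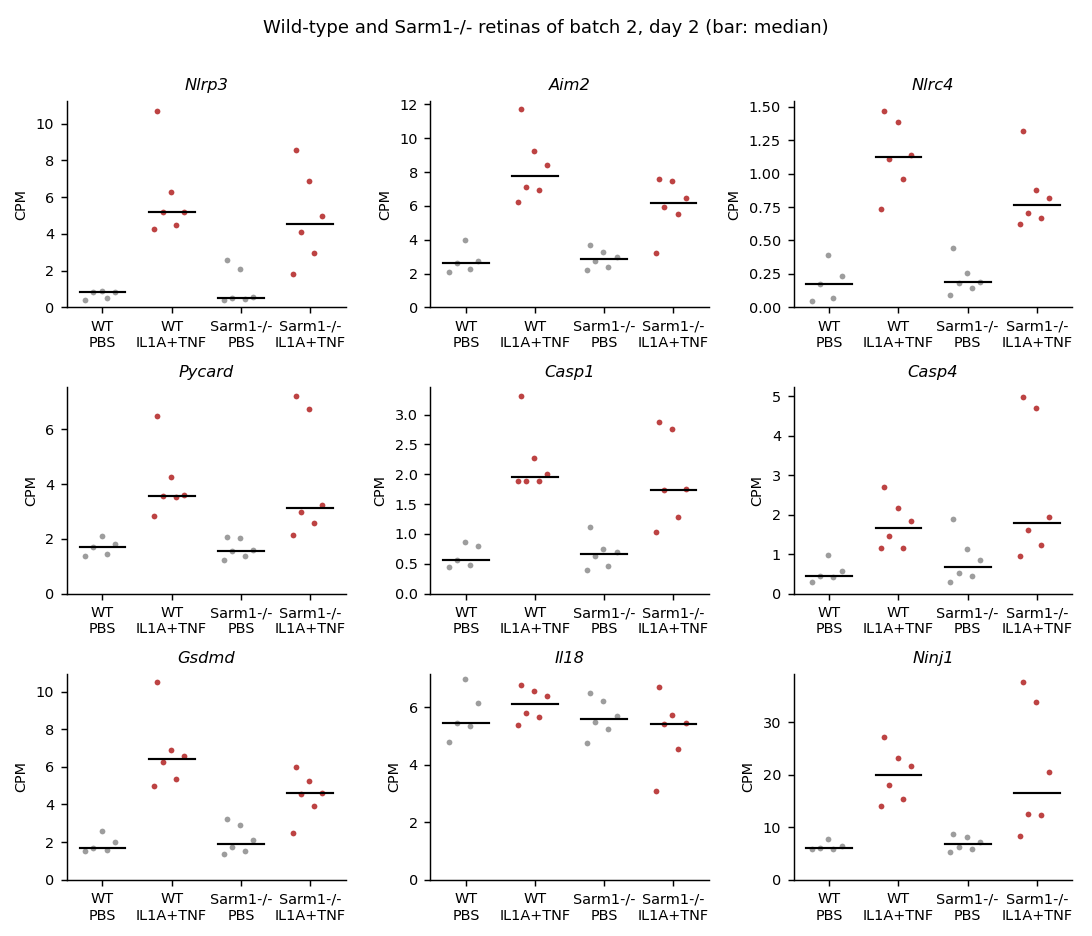
CPM (counts scaled to the library total) of the 9 members in the second batch, by genotype and injection (5 WT PBS, 6 WT IL1A+TNF, 6 Sarm1-/- PBS and 6 Sarm1-/- IL1A+TNF retinas), with a bar at each median. Gsdmd was at 4.98 to 10.5 CPM in WT and 2.47 to 5.99 CPM in Sarm1-/- IL1A+TNF retinas.

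The genotypes were compared with the wild-type retinas of both batches in the fit. Among PBS retinas no member differed (0 of 9 by limma, edgeR and DESeq2, 0 at an unadjusted p below 0.05, against 0.0397% of genes called), although the intervals were wide for the low genes, such as -1.01 to 0.51 for Nlrp3. Among IL1A+TNF retinas 2 members were lower in Sarm1-/- mice, Gsdmd by -0.53 ± 0.17 (adjusted p = 0.0235) and Aim2 by -0.36 ± 0.13 (adjusted p = 0.0389), against 11.1% of genes called lower. Within the second batch, 4 of 6 Sarm1-/- retinas had less Gsdmd than every wild-type retina, and 3 of 6 had less Aim2.

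Both calls changed with the processing. Batch 2 alone gave -0.60 for Gsdmd (adjusted p = 0.154) and -0.45 for Aim2 (adjusted p = 0.21), edgeR and DESeq2 called neither, and both were lost without replicate 61561, 61719, 61924 or 61926, Aim2 also without 61721. Il18 was called lower, beside Gsdmd and Aim2, without 61564, 61765 or 62221 (-0.30 to -0.32).

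Markers of several cell types were also lower in these Sarm1-/- retinas by the same test: 7 of 7 for retinal ganglion cells (median log2 difference -0.94), 3 of 5 for endothelium (-0.53), 3 of 6 for Muller glia (-0.38) and 4 of 8 for microglia (-0.25), while 0 of 5 general leukocyte markers passed (-0.40). Of all genes tested, 11.1% were called lower in this comparison. Ganglion cell markers summed to 93.7 CPM in replicate 61926 and 112 in replicate 61924, which stood apart from the other 4 Sarm1-/- retinas (324 to 677) and from the 6 wild-type retinas of the batch (367 to 632). Without 61924 Gsdmd differed by -0.62 (adjusted p = 0.0524) and Aim2 by -0.39 (adjusted p = 0.109), and without 61926 by -0.57 and -0.43 (adjusted p = 0.0619 and 0.0604). The sums of Sarm1-/- and wild-type retinas were 100 to 158 and 158 to 201 CPM for microglia, and 68.6 to 128 and 136 to 165 CPM for endothelium. The part of these cell types in the member differences was not tested.

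The genotype by treatment interaction, which asks whether the IL1A+TNF effect itself differed between genotypes, called 0 of 9 members (limma, edgeR and DESeq2, 0 at an unadjusted p below 0.05, against 8.72% of genes called). For Gsdmd it was -0.44 (95% confidence interval -0.92 to 0.05, adjusted p = 0.274), for Nlrp3 -0.01 (-0.83 to 0.81) and for Ninj1 0.07 (-0.37 to 0.52).

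Sex and the treatment of the other eye were compared last. Females and males on day 2 differed for 0 of 9 members (limma, edgeR and DESeq2, against 0.363% of genes called), but 5 were at an unadjusted p below 0.05, all higher in females, with Nlrp3 at 0.49 ± 0.16 (adjusted p = 0.201) and Aim2 at 0.23 ± 0.07 (adjusted p = 0.166) the nearest. Of all 19548 genes tested, 1948 were at an unadjusted limma p below 0.05 for sex. PBS retinas whose fellow eye had received IL1A+TNF, IL1A, TNF or no sequenced treatment did not differ for any member (limma F-test, edgeR and DESeq2, 0 at an unadjusted p below 0.05, 0% of genes called), with Casp4 nearest at an unadjusted p of 0.0572.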

How the data were processed

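PolyA RNA of single retinas was sequenced. The authors aligned reads to mm10 with STAR 2.7.9a and assigned them to genes with featureCounts of Subread 2.0.1, per the submitters' processing notes, and deposited a table of raw counts per gene, with no normalization. The strand setting of that counting is not given in the sources used here. Groups, mice and eyes were taken from the labels. Jun-deficient mice were not analysed here.

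Genes were filtered with filterByExpr (minimum count 10, for each fit separately), scaled by TMM and fitted with limma-voom (limma 3.58.1, edgeR 4.0.16, R 4.3.3), with sex as a covariate and mouse as a random block (duplicateCorrelation, 2 rounds), and without the block in fits of PBS retinas alone (in the fit across days, 44 retinas of 43 mice, both eyes of 1 mouse entered as separate retinas). IL1A against TNF, the TNF effect between days and the IL1A+TNF effect between batches, leaving out either eye of that mouse and the shares of genes whose groups do not overlap were added after seeing the data. Retinas of the same mouse are paired through the mouse numbers in the sample titles. The correlation within mouse was 0.0515 in the day 2 fit, and over the fits it ran from -0.0763 (second batch) to 0.284 (day 14). Benjamini-Hochberg adjustment ran over all genes tested, a call is an FDR under 0.05, and p-values are two-sided. Every adjusted p is limma's unless another tool is named. Fold changes are on the log2 scale with standard errors, and CPM levels use plain library totals (TMM factors were 0.92 to 1.1, and on TMM-scaled totals all 108 group means moved by less than 1 SD). The alternatives were edgeR's quasi-likelihood test, DESeq2 1.42.0, DESeq2-type size factors, no filter, no sex term, no block, mouse as a fixed factor, batch 2 alone, and leaving out each mouse in turn (68 fits). The comparisons of the TNF effect between days and of the IL1A+TNF effect between batches were not refitted with a mouse left out. The procedure was tested on simulated data.

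The members were chosen by name, and the members and lists were chosen with earlier results of these data known. All 9 members are named, with up to 3 genes of each pathway list by the size of the change, the 3 genes most like each member, and Sarm1. Nlrp10, Naip5, Gm12250 and Gbp7 after IL1A, Il18bp, Pjvk, Atg16l1 and Nlrx1, and after TNF Nlrp1a, Mefv, P2rx7, Sting1 and Il18r1, were also named, after their values were seen. So were the genes of these lists that are named for the second batch. Likeness used group means of log2(CPM + 0.5) over genes with a mean of at least 1 CPM. Of 37315 genes, 35533 matched the GENCODE M21 annotation. Gbp5, Pydc3 and Pydc4 were not matched to a row. Promoters came from RefSeq. Library totals were 30014757 to 79064488 counts, and Nlrc4, Casp4, Casp1 and Nlrp3 rest on few reads.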

Additional observations from a re-analysis of the deposited data

Results flagged for a closer look

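In 11 of 99 sets of a member and a group of 4 to 10 retinas, the highest or lowest retina lay further from the rest than Dixon's 95% limit allows. The limit flags about 1 in 20 groups by chance if values are normal and sets independent. Members shared a pattern and the same retina was flagged for several of them, so that 11 of 99 cannot be set against that rate. The IL1A+TNF retina of replicate 60212 had the highest Nlrp3 (7.78 CPM, next 4.51), Pycard (7.86, next 4.03) and Gsdmd (9.03, next 6.38) of its group, and its neutrophil markers summed to 798 CPM, the highest value of the series. In the second batch, the wild-type IL1A+TNF retina of replicate 61719 stood out for Nlrp3 (10.7 CPM, next 6.29), Casp1 (3.31, next 2.28) and Gsdmd (10.5, next 6.88), with a neutrophil sum of 701 CPM. The Sarm1-/- IL1A+TNF retina of replicate 61924 had the highest Nlrc4 of its group (1.32 CPM, next 0.881) and a neutrophil sum of 697 CPM. The part of neutrophils in these values was not tested.

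For Casp4, the TNF retina of replicate 60584 was lowest at day 2 (0.0923 CPM, next 0.542), the IL1A retina of replicate 60637 was highest (3.15, next 1.75), and the PBS retina of replicate 59732 was highest at day 35 (0.133, next 0.0283). Il18 was highest in the TNF retina of replicate 59737 at day 35 (5.32 CPM, next 4.47).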

How the results depend on the processing

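Of 2987 recomputed values of single members, 2925 kept their side of the threshold (100 of them changed sign without a call), 55 lost a call, 7 gained one and 0 called values reversed. IL1A+TNF and IL1A against PBS at day 2 each called 8 members in every fit with a mouse left out. With mouse as a fixed factor, the replicate block that rests on mice with both eyes, 0 members were called for TNF against PBS (2 otherwise), 0 for IL1A+TNF against IL1A (1), 3 for IL1A+TNF against TNF (7) and 0 for IL1A against TNF (4). The pairing also ended the Casp4 calls for IL1A (adjusted p = 0.0527) and in batch 2 (adjusted p = 0.12). This fit drops mice with 1 eye. No mouse had sequenced eyes of 2 different cytokine treatments, so that cytokine groups were compared there only through their PBS fellow eyes. Without the filter TNF called 1 member, since Casp1 had an adjusted p of 0.0594. Sarm1-/- against wild type after IL1A+TNF called 0 members in batch 2 alone, 0 with DESeq2 and 0 with edgeR (2 otherwise). With each mouse left out in turn, the count ran from 0 to 2 for TNF, 1 to 2 for IL1A+TNF against IL1A, 0 to 2 for the interaction and 0 to 3 for the genotypes after IL1A+TNF. The cause was not tested. Low reads limit Nlrc4, Casp4, Casp1 and Nlrp3 at days 14 and 35.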
